A study of Zea mays with 4 samples.

Results

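A set of 63 nuclear maize genes had far less transcript in seedlings kept in the cold than in control seedlings. They were chosen by their measured levels: at least 1 CPM (a gene's fragments scaled to a common library size by the library total) in both control libraries together with a mean cold level of at most one sixteenth of the mean control level. They make up 63 of the 20281 nuclear genes that reached 1 CPM in both control libraries (0.311%, called expressed genes from here on), of 44146 nuclear gene models and of 46430 loci in the table. The mirrored rule, a cold mean of at least 16 times the control mean, was met by 61 expressed genes (0.301%).

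RNA was sequenced from whole wild-type seedlings of B73, the maize inbred used for the reference genome. After 9 days in soil at 25 to 28 °C, under 16 h of light and 8 h of dark, the seedlings were kept at that temperature (control, 2 libraries) or at 4 °C for 24 h (cold, 2 libraries). Material from 10 plants aged 10 days was collected, and the labels do not say whether each library holds all of them or whether replicates were grown separately. The spread between libraries may therefore be technical only, and with whole seedlings fewer cells of a type and less RNA per cell cannot be told apart.

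Maize is a grass of tropical origin and is sensitive to chilling. The level of a transcript reflects both its synthesis and its decay. No library from before the cold was sequenced, so drop, fell and similar words below mean lower than in control seedlings. Genes without introns are a minority of the nuclear genes of plants. The nuclear genes carry only locus identifiers in the sources used here, and 0 of the 63 could be given a gene name or function. They are therefore described by level, gene structure and position in B73 RefGen_v4.

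The libraries held between 20942576 and 28493929 fragments, and a floor of 3 fragments corresponded to between 0.105 and 0.143 CPM. Leaf and root markers of the nucleus could not be looked up without names. Of 2 plastid genes that mark green tissue, rbcL (the large subunit of Rubisco) had between 286 and 449 fragments in each library and psbA (a photosystem II core protein) had between 1 and 8. Scaling mattered for the choice of genes. By library totals the median log2 fold change of all 23169 genes tested was -0.24, and by TMM factors, which assume that most genes do not change, it was -0.03. With TMM-scaled library sizes 45 of the 63 genes met the rule and no others did.

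Of the fragments counted in control, the 63 genes together made up 0.122% and 0.115%. In cold they made up 0.00612% and 0.00470%. The summed level was 1220 and 1154 CPM in control replicates 1 and 2, against 61.2 and 47.0 CPM in cold replicates 1 and 2. Every one of the 63 genes was lower in each cold library than in the lower control library, which the rule makes likely. The share over all expressed genes was not counted, so nothing is read from this. In the edgeR quasi-likelihood test 63 of 63 were tested and 63 were called lower, where 27.0% of all tested genes were called lower. The rule used this same contrast, so nothing is read from that count. The log2 fold changes of the fit ran from -9.07 to -3.71 with a median of -4.33, and their standard errors from 0.14 to 1.03.

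**Figure D1:**
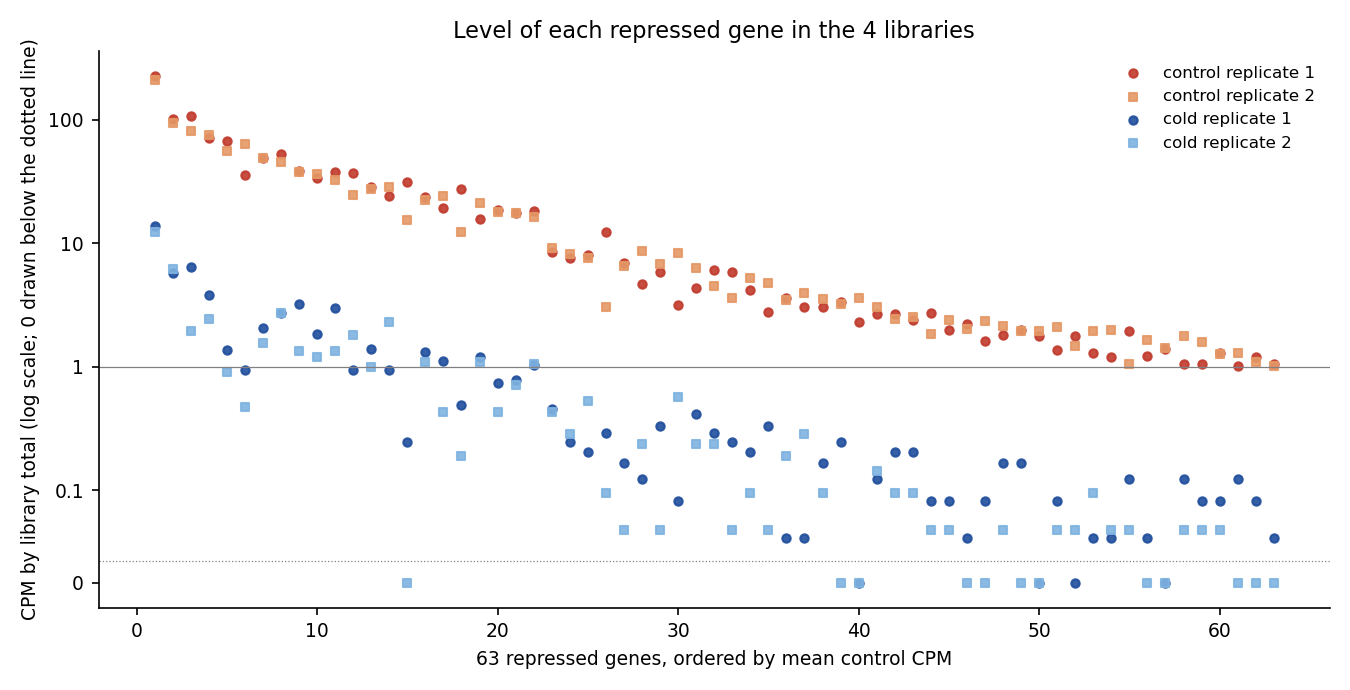
Level in CPM (log scale, 0 drawn below the dotted line) of each of the 63 repressed genes in control replicates 1 and 2 (red and orange) and cold replicates 1 and 2 (dark and light blue), ordered by mean control CPM. The control points run from 226 CPM down to 1.01 CPM, and 4 genes in cold replicate 1 and 12 in cold replicate 2 sit at 0.

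**Figure D2:**
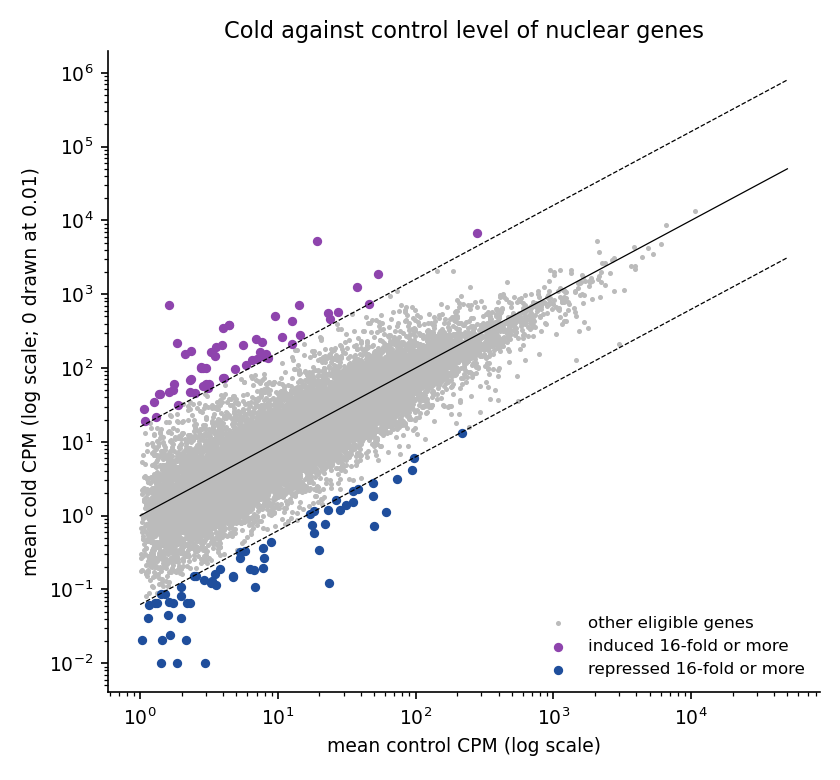
Mean cold CPM against mean control CPM (both log scales) of the 20281 expressed genes, with the 63 repressed genes in blue and the 61 induced by the mirrored rule in purple. The solid line marks equal levels and the dashed lines a 16-fold change, and 1 of the repressed genes lies at a control level above 100 CPM.

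Most of the repressed genes were of low or moderate abundance in control seedlings. The control means had a median of 5.33 CPM (quartiles 1.99 and 22.4), and 22 genes reached 10 CPM, 5 reached 50 CPM and 1 reached 100 CPM. At the other end, 17 genes had a control mean under 2 CPM. The median over the expressed genes was 18.2 CPM. CPM is not scaled by exon length, and the members were shorter than the expressed genes, so levels per kilobase are given below. Cold means had a median of 0.164 CPM and ran from 0 to 13.1 CPM. Of the 63 genes, 21 kept at least 20 fragments over both cold libraries and 17 kept at most 3.

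The repressed gene with the most control fragments was Zm00001d023781, which has 5 exons (chromosome 10, 19951902 to 19954382, minus strand). It stood at 226 and 211 CPM in control replicates 1 and 2 and at 13.9 and 12.3 CPM in cold replicates 1 and 2. Both libraries of each condition lay close together, and the ratio of the means was 16.7, just past the limit. It alone supplied 18.5% and 18.3% of the control fragments of the set, and 22.7% and 26.1% of the cold ones. Zm00001d045661, which has 2 exons (chromosome 9, 32056769 to 32058471, plus strand), showed the same closeness. Its values were 102 and 93.5 CPM in control and 5.71 and 6.26 CPM in cold, a ratio of 16.3.

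Levels of different genes were compared per kilobase of exon. On that scale Zm00001d026859, a gene with 2 exons and only 401 exon bases (chromosome 4, 93312857 to 93314303, minus strand), was the most abundant of the set, at a control mean of 236 CPM per kb. Its libraries held 108 and 81.2 CPM in control and 6.41 and 1.96 CPM in cold, so the cold libraries differed 3.27-fold while both lay far under the controls. Zm00001d023781 followed with 118 CPM per kb, then the single-exon genes Zm00001d041794 with 101 and Zm00001d017510 with 99.2 CPM per kb. The median over the 63 genes was 5.38 CPM per kb, against 7.77 over the expressed genes. At control means of at least 10 CPM it was 57.5 CPM per kb in the members and 13.8 in expressed genes. Under 10 CPM it was 2.31 against 2.49 CPM per kb.

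A group of short single-exon genes stood among the more abundant members. Zm00001d041794 (486 bases, chromosome 3, 138412583 to 138413068, plus strand) counted 1408 and 1167 fragments in control and 50 and 33 in cold. Zm00001d041960, further along the same strand of chromosome 3 (777 bases, 145899089 to 145899865), had 2046 and 1778 control and 93 and 51 cold fragments. Both fell well past the limit, with ratios of the means of 27.1 and 23.4, and with little difference between the control libraries. Zm00001d017510 (387 bases, plus strand of chromosome 5) went from 1104 and 902 fragments to 78 and 28. Zm00001d011785 (660 bases, plus strand of chromosome 8) went from 958 and 872 to 45 and 25. In these 4 genes cold replicate 1 was the higher of the cold libraries. Still shorter were Zm00001d023117 on chromosome 10 (302 bases), with 553 and 577 control and 27 and 9 cold fragments, and Zm00001d042317 on chromosome 3 (252 bases), with 533 and 428 control and 18 and 9 cold fragments.

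Among genes with a control mean of at least 10 CPM, the steepest drops were in 6 genes that fell between 28.3-fold and 188-fold. Zm00001d048660, which has 2 exons (chromosome 4, 2847383 to 2847973, plus strand), was counted 894 and 365 times in control and 6 and 0 times in cold. The ratio of its summed, library-scaled fragments was 181 (95% counting interval 83.1 to 495). Zm00001d046728, a single-exon gene of 576 bases on chromosome 9 (103756845 to 103757420), stood at 35.9 and 63.9 CPM in control and 0.951 and 0.477 CPM in cold, a summed ratio of 66.5 (interval 47.2 to 96.8). Zm00001d048841, with 3 exons on chromosome 4 (6223611 to 6225506), stood at 27.3 and 12.4 CPM in control and 0.496 and 0.191 CPM in cold (58.0, interval 35.6 to 102). In these 3 genes the control libraries differed by between 1.78-fold and 2.20-fold, so the size of the drop is less certain than its counting interval shows. Zm00001d035767, with 2 exons on chromosome 6 (46577784 to 46579578), had close control libraries, 66.8 and 55.6 CPM, and stood at 1.37 and 0.907 CPM in cold (53.5, interval 40.7 to 71.9). These intervals and floors cover counting error alone, since fragments lack molecular identifiers and may be copies of one molecule.

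Of the other members with a control mean of at least 10 CPM, Zm00001d041794 was 27.1-fold lower and the rest were between 16.05-fold and 23.4-fold lower. Those with several exons included Zm00001d021634 on chromosome 7 (2 exons), at 52.6 and 45.5 CPM in control and 2.73 and 2.72 CPM in cold, and Zm00001d015737 on chromosome 5 (3 exons), at 23.5 and 22.4 CPM in control and 1.32 and 1.10 CPM in cold. Zm00001d019237 on chromosome 7 (4 exons) went from 813 and 656 fragments in control to 34 and 21 in cold. In these 3 the libraries of a condition lay within 1.40-fold of each other. Zm00001d036014 (5 exons) and Zm00001d035310 (3 exons), both on chromosome 6, were the members of this level with a clearly higher cold replicate 2, with 23 and 38 fragments in the first and 23 and 48 in the second. Their control fragments were 1066 and 588 in the first and 691 and 683 in the second. The single-exon genes Zm00001d037743 on chromosome 6 (501 and 418 control, 19 and 15 cold fragments) and Zm00001d002535 on chromosome 2 (519 and 385 control, 25 and 22 cold fragments) changed evenly between replicates.

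The 41 members under 10 CPM in control were longer, with a median of 1113 exon bases against 618 in the 22 above it, and their cold values came from few fragments. Zm00001d001206, with 3 exons on chromosome 7, had 198 and 157 control and 4 and 1 cold fragments, a summed ratio of 61.4 (95% counting interval 26.0 to 190). Zm00001d044092, with 4 exons but only 315 exon bases on chromosome 3, had 216 and 196 control and 6 and 6 cold fragments (29.7, interval 16.8 to 57.9). Zm00001d047437 on chromosome 9 had 244 and 219 control and 11 and 9 cold fragments (interval 12.8 to 33.1), the largest cold count of these 3. At the low end, Zm00001d053322 on chromosome 4 had 64 and 48 control and 1 and 0 cold fragments, and its ratio of 96.8 had an interval of 17.0 to 3857. Zm00001d029920 on chromosome 1, the member with the lowest control mean (1.03 CPM), had 30 and 24 control and 1 and 0 cold fragments (46.7, interval 8.03 to 1877). For such genes the rule makes it likely that the groups do not overlap, and the counts hardly limit the size of the drop.

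No cold fragment was found for 3 of the genes. Zm00001d019453, which has 3 exons (chromosome 7, 34423056 to 34424024, minus strand), counted 66 and 86 fragments in control and 0 in both cold libraries. Against a floor of 3 fragments over the cold group its ratio was 43.8 (counting interval from 35.2). Zm00001d028225, which has 7 exons (chromosome 1, 27256288 to 27266967, plus strand), counted 51 and 46 fragments in control (ratio at the floor 27.9, interval from 22.3). Zm00001d037623, a single-exon gene of 276 bases on chromosome 6 (132134851 to 132135126), had 40 and 34 control fragments (ratio at the floor 21.3, interval from 16.9). In all 3 the control libraries were within 1.57-fold of each other. A further 10 genes had no fragment in one of the cold libraries, which was cold replicate 2 in 9 of them.

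The depth of the drop could not be ranked with confidence across the set. Of the 60 genes with a cold fragment, the ratio of means had a median of 23.4 (quartiles 18.7 and 33.4), and 19 genes lay between 16-fold and 20-fold. With the 3 genes at 0 counted as past either limit, 20 genes were at least 32-fold lower and 8 at least 64-fold lower. In 34 of the 63 the lower control library was at least 16 times the higher cold library, and in 22 the counting interval of the summed ratio lay above 16. The genes just inside the limit were Zm00001d021459 at 16.05-fold, Zm00001d039648 at 16.25-fold and Zm00001d009686 at 16.26-fold. Just outside it were Zm00001d003161 at 15.6-fold, Zm00001d026606 at 15.5-fold and Zm00001d013193 at 15.4-fold. Zm00001d013193, with 16479 and 12386 control and 1030 and 607 cold fragments, was more abundant than any gene inside. A limit of 8-fold would have taken in 213 genes.

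The repressed genes were short and often had a single exon, features that the rule did not use. After merging overlapping exons of a gene's transcripts, 28 of the 63 had 1 exon, 10 had 2, 10 had 3 and 15 had more. That is 44.4% with a single exon, where 14.5% of the expressed genes had one. The median exon length was 845 bases (quartiles 570 and 1645), against 1994 bases over the expressed genes, and 35 of the 63 were under 1 kb (55.6% against 15.4%). The shortest, Zm00001d010903 on chromosome 8, had 198 exon bases, and the longest, Zm00001d010849 on the same chromosome, had 14 exons and 7394 bases. Both were of low abundance, with 37 and 30 control fragments in the first and 78 and 44 in the second.

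Over all levels the share of single-exon genes was higher in classes with a larger decrease. It was 12.1% of the 14027 genes that stayed within 2-fold, 17.8% of those 2-fold to 4-fold lower, 28.3% at 4-fold to 8-fold, 42.0% of the 150 genes at 8-fold to 16-fold and 44.4% in the repressed set. The median exon length over the same classes went from 2105 to 1809, 1596, 1212 and 845 bases. Among increases the share was higher in the second class and lower in the last. Single-exon genes were 16.4% of the genes 2-fold to 4-fold higher and 18.0% of the 484 that were 4-fold to 16-fold higher. They were 11.5% of the 61 genes induced 16-fold or more, where the median exon length was 1913 bases. Genes are not independent replicates, and these shares and medians are given as a description, without a test.

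Abundance moved with these features and was examined within levels. Among the 22 repressed genes with a control mean of at least 10 CPM, 11 had a single exon and 16 were under 1 kb (72.7%), against 8.78% and 11.1% of the 13239 expressed genes at that level. Among the 41 under 10 CPM, 17 had a single exon (41.5%) and 19 were under 1 kb (46.3%), against 25.1% and 23.6%. The genes 8-fold to 16-fold lower had a single exon in 37.3% of 51 at the higher level and in 44.4% of 99 at the lower, where the share was thus not higher in the repressed set. Against all expressed genes, single-exon and short genes made up a larger share of the repressed set at both levels, a difference that was not tested. The single-exon share lay between 36.1% and 50.5% when any 1 library was left out of the rule.

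**Figure D3:**
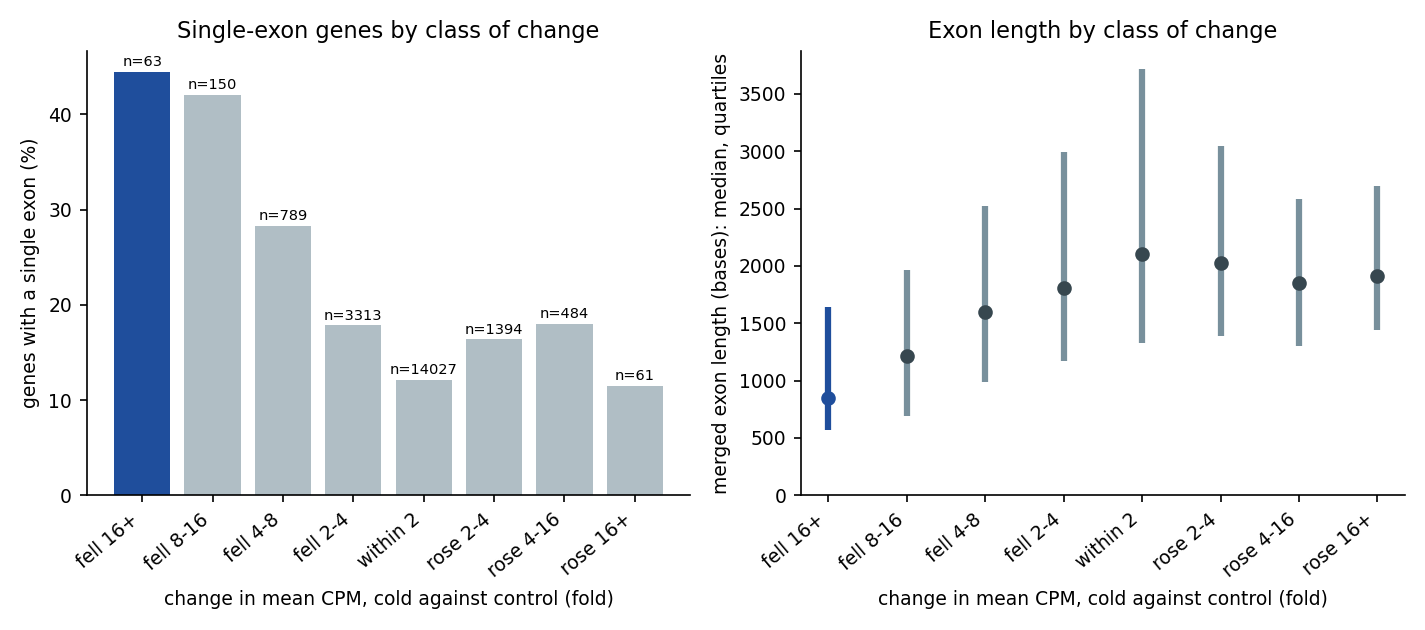
Share of single-exon genes (left, %) and merged exon length (right, bases, points are medians and lines run from the lower to the upper quartile) of the expressed genes, by class of fold change in mean CPM from cold against control; n is the number of genes. The share is 44.4% and the median length 845 bases in the repressed set (blue), against 12.1% and 2105 bases in genes that stayed within 2-fold.

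The repressed genes lay on all 10 chromosomes and not next to each other. Chromosome 3 held 9, chromosomes 6 and 8 held 8 each and chromosomes 2, 5 and 10 held 4 each. Per 1000 expressed genes of the chromosome this ranged from 1.64 on chromosome 5 to 4.81 on chromosome 6. The closest pair, Zm00001d010884 and Zm00001d010903 on chromosome 8, was 592 kb apart with 16 genes between, and Zm00001d042307 and Zm00001d042317 on chromosome 3 were 606 kb apart. No pair lay within 100 kb.

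Their nearest neighbours were further away than those of other expressed genes. The gap to the nearer gene model had a median of 20.4 kb, against 3.25 kb over the 20133 expressed genes on chromosomes 1 to 10. It was 4.95 kb in genes 8-fold to 16-fold lower and 7.83 kb in genes induced 16-fold or more. For the single-exon members it was 28.6 kb, where all single-exon expressed genes had 4.58 kb, and for the other members 16.3 kb against 3.01 kb. By level, the gap was 32.3 kb in members of at least 10 CPM, against 3.04 kb in expressed genes of that level. Under 10 CPM it was 10.3 kb against 3.66 kb. Of the 63, 4 had a gene model within 1 kb and 28 had one within 10 kb, and the matching shares over the expressed genes were not counted. Counting the gaps on both sides, 26.2% of those of the members were up to 10 kb, against 42.9% over the expressed genes. The wider surroundings differed less, with a median of 22 gene models within 500 kb on either side of a member and 26 around expressed genes. These distances depend on which gene models the annotation holds, and they were not tested.

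Neighbours, which the rule did not use, were more often lower than higher in cold. Each repressed gene has a neighbour on either side, 126 in all, and none of them is itself in the set. Of these, 77 had enough fragments to be tested, and 33 were called lower, 12 higher and 32 were not called (edgeR quasi-likelihood test, Benjamini-Hochberg adjusted over all 23169 genes). That is 42.9% lower and 15.6% higher, beside 27.0% of all tested genes in each direction. The median log2 fold change of the neighbours was -0.50, and -0.03 over all tested genes. Over the neighbours of all expressed genes 27.1% were lower. Genes with smaller decreases also had more lowered neighbours, with 36.9% lower and 22.8% higher beside genes 8-fold to 16-fold lower and 33.7% lower and 22.7% higher beside genes 4-fold to 8-fold lower. Over the neighbours of the 61 induced genes 22.2% were lower and 38.3% higher. The share of lowered neighbours of the repressed genes moved with the control libraries. It was 27.3% without control replicate 1 and 31.2% without control replicate 2, where 18.1% and 17.8% of all tested genes were called lower.

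Distance and orientation did not order the neighbours clearly. Of the 20 tested neighbours within 10 kb, 7 were lower and 5 higher, and of the 57 beyond 10 kb, 26 were lower and 7 higher. Upstream neighbours were lower in 17 of 39 cases and downstream ones in 16 of 38. By arrangement, 8 of 14 divergent, 8 of 18 convergent and 17 of 45 same-strand neighbours were lower. These differences were not tested. Of the members, 24 had both neighbours tested and 10 had none tested. At least 1 neighbour was called lower for 27 members, and both for 6. The matching shares over all expressed genes were not counted. Strand was not used in counting, so reads of overlapping genes cannot be told apart, which touches Zm00001d029920 and Zm00001d048458, the 2 members that overlap another gene model.

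**Figure D4:**
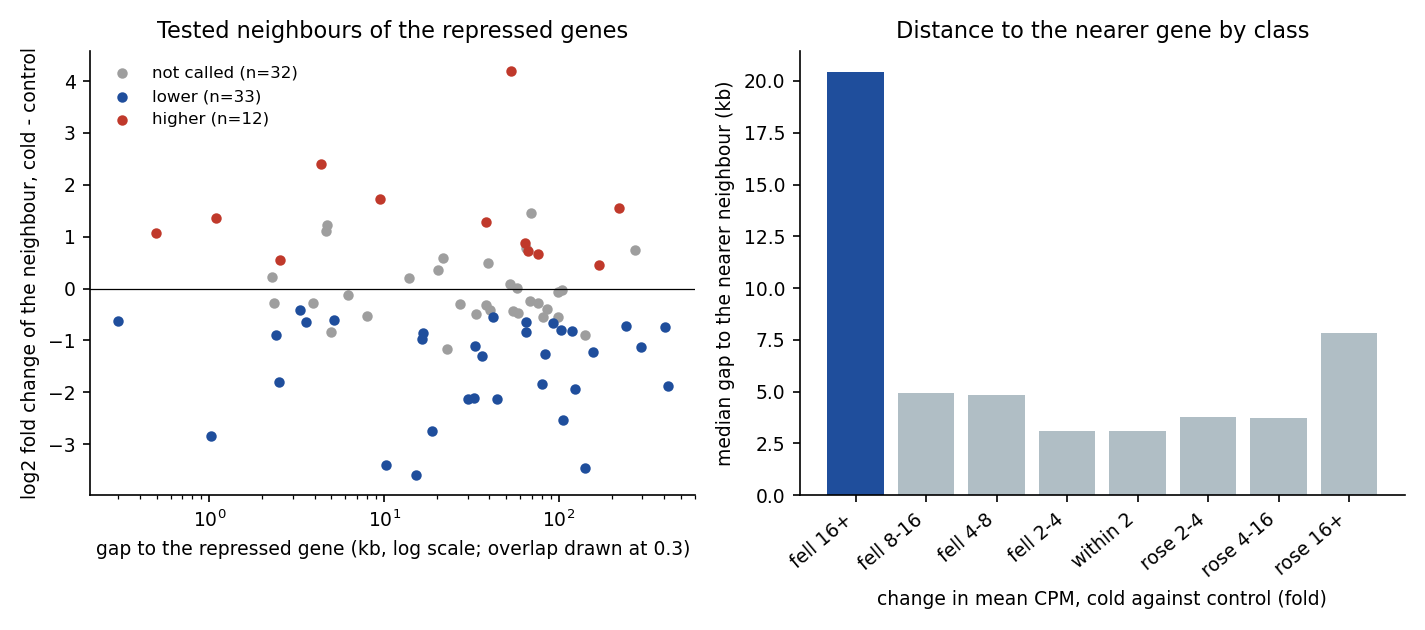
Left, log2 fold change (cold minus control) of the 77 tested neighbours of the repressed genes against the gap between the genes (kb, log scale), coloured by the edgeR call: 33 lower (blue), 12 higher (red) and 32 not called (grey). Right, median gap to the nearer gene model (kb) by class of fold change, which is 20.4 kb for the repressed genes (blue bar) and 3.10 kb for genes that stayed within 2-fold.

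A run of small genes on chromosome 10, picked after its values were seen, held 2 of the 3 tested neighbours with the lowest log2 fold changes. The remaining one was Zm00001d019399 on chromosome 7, 141 kb from Zm00001d019400, with 124 and 155 control and 10 and 9 cold fragments (log2 fold change -3.46, SE 0.37, edgeR adjusted p = 0.00027), named after its values were seen. Zm00001d024799 (88684061 to 88684357, minus strand, 1 exon of 297 bases) is the member, with 231 and 180 control and 5 and 11 cold fragments. The gene upstream, Zm00001d024800 (88699677 to 88699964), had 340 and 282 control and 17 and 21 cold fragments, a log2 fold change of -3.60 (SE 0.27, edgeR adjusted p = 6.9e-05). The gene downstream, Zm00001d024798 (88673507 to 88673767), had 100 and 60 control and 4 and 7 cold fragments (-3.39, SE 0.49, edgeR adjusted p = 0.0011). Both missed the limit of the set, at 14.0-fold and 12.1-fold lower. The run goes on with Zm00001d024802 (88718249 to 88718494), which had 330 and 203 control and 125 and 58 cold fragments (-1.14, SE 0.30, edgeR adjusted p = 0.015, and 0.087 without control replicate 1). All 4 lie on the minus strand, have a single exon of 246 to 297 bases and were called lower. Next on that side with enough fragments to test was Zm00001d024804, with 4 exons, which was higher in cold (1.35, SE 0.18, edgeR adjusted p = 0.00068). Reads that map to several places were not counted, so levels of such small genes are uncertain where copies are near-identical, and no sequence was used here to check that.

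A looser run on chromosome 1, also picked after its values were seen, surrounds the member Zm00001d028929 (51817955 to 51820623, plus strand), which had 35 and 39 control and 1 and 0 cold fragments. Within 100 kb of this member, Zm00001d028926 (log2 fold change 0.99, SE 0.12, edgeR adjusted p = 0.00049) and Zm00001d028923 (0.88, SE 0.11, edgeR adjusted p = 0.00061) were called higher. Both had many more fragments than the run, and Zm00001d028924 was not called. In the run, the divergent gene Zm00001d028928, 1.03 kb from the member, counted 16 and 24 fragments in control and 1 and 3 in cold (log2 fold change -2.85, SE 0.76, edgeR adjusted p = 0.015). Zm00001d028930, at 18.9 kb, had 27 and 11 control and 2 and 2 cold fragments (-2.74, SE 0.74, edgeR adjusted p = 0.016). Both calls rest on few fragments. The first was lost without control replicate 2 (adjusted p = 0.076) or cold replicate 1 (0.068), and the second without control replicate 1 (0.12) or cold replicate 1 (0.055).

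Other neighbours at a mean of at least 5 CPM changed in both directions, by less than the lowered genes of the chromosome 10 run next to its member. Zm00001d035682, 30.2 kb from the short member Zm00001d001336 on chromosome 6, fell from 8264 and 6970 to 1161 and 1386 fragments (log2 fold change -2.13, SE 0.20, edgeR adjusted p = 0.00015). Zm00001d050495, 44.1 kb from Zm00001d026859 on chromosome 4, fell from 404 and 262 to 63 and 50 fragments (-2.13, SE 0.23, edgeR adjusted p = 0.0003). In the other direction Zm00001d038555, 4.36 kb from Zm00001d038554 on chromosome 6, rose from 621 and 505 to 2329 and 2109 fragments (2.41, SE 0.13, edgeR adjusted p = 2.2e-05), while the member itself went from 30 and 38 to 2 and 1. Zm00001d007037 rose beside Zm00001d007035 on chromosome 2 (1.73, SE 0.20, edgeR adjusted p = 0.00035). Zm00001d013631 rose beside Zm00001d013630 on chromosome 5 (1.36, SE 0.12, edgeR adjusted p = 0.00012), at a gap of 1.10 kb between converging ends. Under 5 CPM, Zm00001d041796 rose from 0 and 3 to 23 and 22 fragments (4.19, SE 0.84, edgeR adjusted p = 0.0046). It lies 52.9 kb from Zm00001d041794 on chromosome 3 and was named after its values were seen. This was the largest log2 fold change of the tested neighbours in either direction, from few fragments.

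The control libraries differed more in the repressed genes than in expressed genes, both at or above 10 CPM and below it. They were over 1.5-fold apart in 15 of 63 repressed genes (23.8%) and in 6.17% of the expressed genes. At control means of at least 10 CPM this was 4 of 22 (18.2%) against 1.72%, and under 10 CPM 11 of 41 (26.8%) against 14.5%. It was also 26.2% in the 61 genes induced 16-fold or more. The widest was Zm00001d038703, a single-exon gene of 1511 bases on chromosome 6, with 355 and 73 control and 7 and 2 cold fragments, a 4.05-fold difference between the control libraries. Next came Zm00001d030670 on chromosome 1, which went the other way with 91 and 200 control and 2 and 12 cold fragments. The rule used the control values, and under 10 CPM the members had a lower median control level (2.46 against 4.16 CPM). These differences between gene groups were not tested, and nothing is read from them. Neither control library was the higher one throughout, with replicate 1 above replicate 2 in 31 of the 63.

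**Figure D5:**
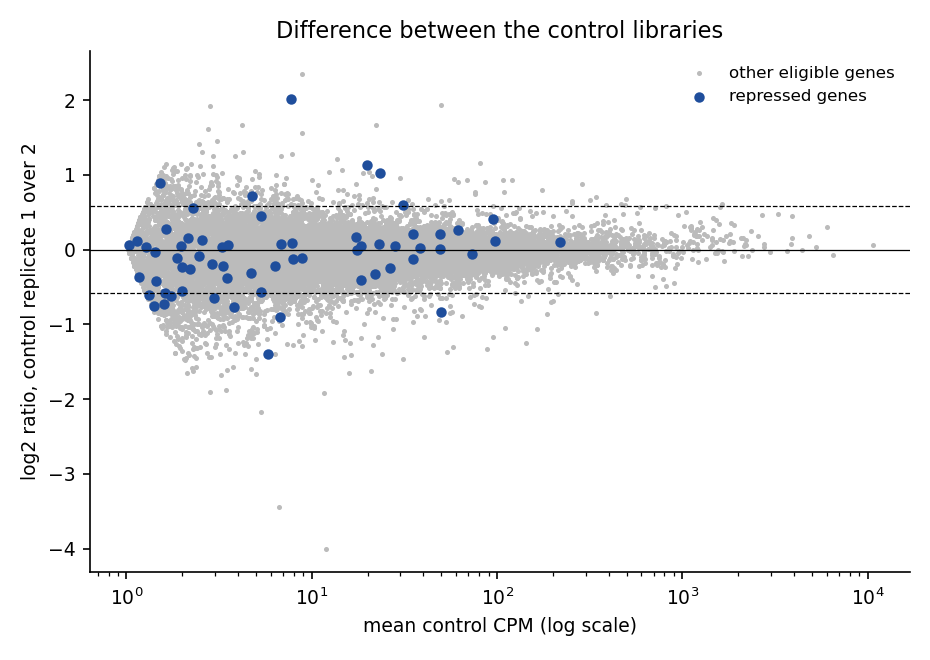
Log2 ratio of control replicate 1 over control replicate 2 against mean control CPM (log scale) for the 20281 expressed genes, with the 63 repressed genes in blue; dashed lines mark a 1.5-fold difference. Of the repressed genes 15 lie outside the dashed lines, on both sides of 0.

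Cold replicate 1 was more often the higher of the cold libraries. It was so in 46 of the 63 repressed genes and in 63.0% of all expressed genes, and at control means of at least 10 CPM in 18 of 22 (81.8%) against 65.7%. Cold replicate 2 was the higher in 14 of the 63. Over the 50 genes with fragments in both the median ratio of replicate 1 to replicate 2 was 1.66. Over all expressed genes that ratio was 1.08. In the 61 induced genes it was 0.75, with cold replicate 1 the higher in 12. By these medians cold replicate 2 lay further from the control libraries in both sets. The alignment of cold replicate 1 alone has the word sample in its name, per the file headers, and whether its reads were subsampled is not known here. Its part in these differences, and in the zeros of cold replicate 2, was not tested. By the rule of repression 111 genes qualified without cold replicate 1, against 73 without cold replicate 2. The largest differences between the cold libraries rested on few fragments, such as 8 and 1 in Zm00001d050434, 8 and 1 in Zm00001d034882 and 1 and 6 in Zm00001d005933.

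Strand was balanced over the set, with 34 genes on the plus and 29 on the minus strand, but not within levels. Of the 22 members at or above 10 CPM 19 were on the plus strand (86.4%), where 50.8% of expressed genes at that level were. Of the 41 below 10 CPM 15 were (36.6%), where 50.2% of expressed genes were. This split was noticed after the values were seen and was not tested.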

How the data were processed

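The authors deposited unnormalized counts of read pairs for each gene, for 2 control and 2 cold libraries. Counting used featureCounts 1.6.4 without strand and release 43 of the B73 RefGen_v4 annotation, per the file headers. Per the submitters' processing notes fastp and HISAT2 were also used, at versions not given there. The deposited table also holds other values, exon lengths, which equalled the merged exon coordinates for 46430 loci. CPM divides by library totals (20942576 to 28493929 fragments). The 23169 genes that passed filterByExpr (minimum count 10, minimum total 15) were tested with edgeR 4.0.16 (R 4.3.3) by its two-sided quasi-likelihood test, with TMM factors, condition as the only term and Benjamini-Hochberg adjustment at 0.05, tested beforehand on simulated data. The repressed genes and the comparisons were chosen with earlier results of these data known. The 38 named genes followed through the alternatives are those with the highest control CPM, largest drops, no cold fragment, nearness to the limit and libraries furthest apart. They also include the most changed neighbours at a mean of at least 5 CPM and genes of the runs on chromosomes 10 and 1. Other genes given with values are examples outside these rules. Alternatives were RLE or no factors, other filters, DESeq2 1.42.0, a stricter threshold, the replicate number as a block, other limits in the rule and leaving out each library. Replicates were not repeat deposits of 1 library (chi-square per degree of freedom 11.3 in control and 25.0 in cold). Of the nuclear identifiers, 0 matched the available RefSeq table, which describes assembly Zm-B73-REFERENCE-NAM-5.0, and no sequences were used.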

Additional observations from a re-analysis of the deposited data

How the results depend on the processing

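The size of the set depended on the limits of the rule. It held 63 genes as reported, 45 with TMM-scaled or RLE-scaled library sizes, 27 with at least 5 CPM in both control libraries, 106 with at least 0.5 CPM, 213 at one eighth, 20 at one thirty-second and 34 where the lowest control library had to be 16 times the highest cold one, the last chosen after seeing the data. With a library left out it held between 72 and 111 genes, of which between 46 and 58 were shared with the 63. The single-exon share, an alternative analysis chosen after seeing the data, was between 40% and 44.4% under the other limits and scalings. All 63 stayed called lower under the alternatives that kept every library, except the filter of 5 CPM in 2 libraries, which tested 27 of them and called 27. The rule used this same contrast, so nothing is read from these counts of members. Neighbours called lower numbered between 21 and 35 with a library left out, 45 of 77 with library totals alone, 29 with DESeq2 and 23 at an adjusted p under 0.01. Over all genes 4117 to 6452 were lower with a library left out, 3956 at an adjusted p under 0.01 and 8188 with library totals alone. As shares of those tested, 58.4% of neighbours and 35.3% of all genes were called lower with library totals alone. These shares were 37.7% and 22.1% with DESeq2, and 29.9% and 17.1% at an adjusted p under 0.01. With the replicate number as a block (replicate block), 63 repressed genes, 31 neighbours and 5808 of all genes were called lower and 11 neighbours higher. Deviations of same-numbered libraries correlated at -0.092 across 18931 genes. The labels do not say what same-numbered libraries share, and this correlation cannot settle it. Of 368 alternative values for 38 named genes 362 kept their direction and call, 6 lost the call and 0 reversed. The calls lost were those of Zm00001d024802, Zm00001d028928 and Zm00001d028930, the last also with DESeq2 (adjusted p = 0.059). A library left alone in its condition was given the spread of the other condition. Depth limits the drop of the 17 genes with at most 3 cold fragments, whose ratios are known only within wide intervals.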
